A study of Mus musculus with 2 samples.

Results

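The Prss34 class is a group of single mouse bone marrow cells that the deposited cell annotation names after Prss34, a gene for a basophil protease. Its members were taken as every cell with that class name, which gave 338 of 14795 cells: 1 of 7889 in the library labelled Runx1 KO and 337 of 6906 in Control. The share was 0.0127% (95% interval 0.000321 to 0.0706) in Runx1 KO and 4.88% (4.38 to 5.41) in Control. Both libraries held hind limb marrow of C57BL/6 mice, sorted for c-Kit and against lineage markers and Sca1 (LKS-), the gate of committed myeloid, erythroid and megakaryocyte progenitors. The sources used here do not state how many Runx1 KO mice were used, their age or the Cre driver. For Control, marrow of a Runx1f/f mouse, with both alleles floxed, was pooled with that of a Runx1f/- mouse, which carried a germline mutation on 1 allele, so some Control cells had a single working allele. A label field speaks of embryos, while the tissue and extraction fields name marrow and were followed. With 1 library per genotype and cells that are not replicates, no test was possible. Every interval below covers counting error only, not the spread between mice. Intervals of transcript levels leave out the spread between cells as well.

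Basophils and mast cells are the granulated effector cells of allergy and of defence against parasites. Both carry the high-affinity IgE receptor on their surface, and crosslinking of that receptor releases histamine, proteases and lipid mediators. Basophils finish their development in the marrow and circulate, while mast cells leave as progenitors and mature in tissues such as skin and gut under the Kit ligand stem cell factor. Runx1 encodes a DNA-binding transcription factor of blood cells, and in mice basophils are known to need it.

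The Control members carried the markers of the class, and the Runx1 KO member did not. The single Runx1 KO member held 11041 unique molecular identifiers (UMIs, counted molecules) but 0 UMIs of Prss34, Mcpt8, Ms4a2, Cpa3 and Gzmb, the markers of the class. It held 0 UMIs of the mast cell marker list and, of the basophil list, 3 UMIs of Gata2, a gene that megakaryocyte progenitors share. It held 44 UMIs of 5 megakaryocyte markers, with 12 of Itga2b. The account of the class therefore rests on the 337 Control cells. Class cells had a median of 13639 UMIs and 3591 genes, against 22284 UMIs and 4524 genes in the other Control cells. A doublet caller marked 0 class cells, 3.38% of all Runx1 KO cells and 2.22% of all Control cells. The libraries shared 13 cell barcodes, 0 of them in the class. Runx1 itself had 361 CPM in Runx1 KO and 143 CPM in Control. Counts at the 3′ end of a gene do not check a deletion elsewhere in it, and the sources used here do not state which part was deleted.

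The promoters of the 5 class markers are shown because the class is named and recognised by these genes and is nearly missing where Runx1 was targeted. Each window runs from 250 bases before to 50 bases after the RefSeq start on GRCm38.p6, 5′ to 3′ on the gene's strand. The windows are chr17:25298144-25298443 (plus) for Prss34, chr14:56085148-56085447 (minus) for Mcpt8, chr19:11623670-11623969 (minus) for Ms4a2, chr3:20242132-20242431 (minus) for Cpa3 and chr14:56262285-56262584 (minus) for Gzmb. Capitals mark the GATA motif AGATAA and the RUNX motif TGTGGT, each on either strand (TTATCT and ACCACA).
Prss34: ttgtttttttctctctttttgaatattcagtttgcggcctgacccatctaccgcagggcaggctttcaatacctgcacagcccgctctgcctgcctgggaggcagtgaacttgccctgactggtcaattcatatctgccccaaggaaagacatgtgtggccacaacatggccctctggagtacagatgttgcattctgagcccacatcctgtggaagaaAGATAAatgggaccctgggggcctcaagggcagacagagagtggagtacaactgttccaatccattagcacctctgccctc
Mcpt8: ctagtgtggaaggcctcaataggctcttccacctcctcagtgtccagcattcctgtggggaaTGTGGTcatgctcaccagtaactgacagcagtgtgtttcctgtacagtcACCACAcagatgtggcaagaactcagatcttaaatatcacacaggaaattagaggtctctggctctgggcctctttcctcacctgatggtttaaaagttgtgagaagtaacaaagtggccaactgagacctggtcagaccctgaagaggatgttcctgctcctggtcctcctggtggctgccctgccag
Ms4a2: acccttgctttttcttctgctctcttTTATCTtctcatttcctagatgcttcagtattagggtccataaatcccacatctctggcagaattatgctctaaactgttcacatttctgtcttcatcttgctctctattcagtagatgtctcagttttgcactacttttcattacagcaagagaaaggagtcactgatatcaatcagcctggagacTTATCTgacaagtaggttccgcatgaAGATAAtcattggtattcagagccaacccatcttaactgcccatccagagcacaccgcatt
Cpa3: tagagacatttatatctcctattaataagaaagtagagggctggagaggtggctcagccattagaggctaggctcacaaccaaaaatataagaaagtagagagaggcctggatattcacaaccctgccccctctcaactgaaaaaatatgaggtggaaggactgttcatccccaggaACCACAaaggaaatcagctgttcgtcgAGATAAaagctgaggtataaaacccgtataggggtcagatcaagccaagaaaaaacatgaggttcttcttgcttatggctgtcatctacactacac
Gzmb: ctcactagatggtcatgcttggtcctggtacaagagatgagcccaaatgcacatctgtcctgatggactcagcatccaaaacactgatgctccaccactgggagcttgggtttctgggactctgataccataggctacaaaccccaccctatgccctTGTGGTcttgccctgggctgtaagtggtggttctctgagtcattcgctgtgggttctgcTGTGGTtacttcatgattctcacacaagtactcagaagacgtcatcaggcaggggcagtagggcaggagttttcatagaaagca
The GATA motif was in the windows of Prss34 (1 match), Ms4a2 (3) and Cpa3 (1). The RUNX motif was in those of Mcpt8 (2 matches), Cpa3 (1) and Gzmb (2). No match of one motif overlapped the other. Of all 32851 RefSeq windows of the same length, 11.2% held the GATA motif and 16.8% the RUNX motif. Among windows of genes at least 2-fold higher in the class than in the rest of Control the shares were 9.35% and 16.7% of 246, among windows of genes at least 2-fold lower 10.6% and 14.4% of 132, and among windows of all measured genes 6.02% and 12.7% of 4920. A letter match is not a binding site.

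The Control class cells carried proteases of basophils and of mast cells at levels above those of every other Control class of at least 30 cells. UMIs were summed over cells and given as counts per 1000000 of the sum (CPM). Prss34 (GRCm38 chromosome 17, 25298394 to 25300165) had 4458 CPM in the class (95% interval 4401 to 4516) and 7.04 CPM in all other Control cells. Less the UMIs of the cell with the most, Prss34 was at 4221 CPM in the class, below that interval. Mcpt8 (chromosome 14, 56082166 to 56085273), in mice a basophil granule protease, had 3818 CPM (3765 to 3872) in the class and 21.8 CPM in the rest. The classes rest on the expression of the same cells, so these levels describe the class and were not tested. Ms4a2 (chromosome 19, 11615523 to 11623719), the beta chain of the IgE receptor, had 1013 CPM in the class and 24.2 CPM in the rest. Cpa3 (chromosome 3, 20215620 to 20242181), a carboxypeptidase of mast cell and basophil granules, had 1922 CPM in the class and 109 CPM in the rest. Gzmb (chromosome 14, 56258838 to 56262260), the serine protease granzyme B, had 452 CPM in the class and 4.61 CPM in the rest. The class with the next highest level was Prg2, the 37 cells named after an eosinophil granule gene, for Prss34 (263 CPM), Mcpt8 (356), Ms4a2 (324) and Cpa3 (716). For Gzmb it was the Unannotated cells, at 66.4 CPM.

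**Figure D1:**
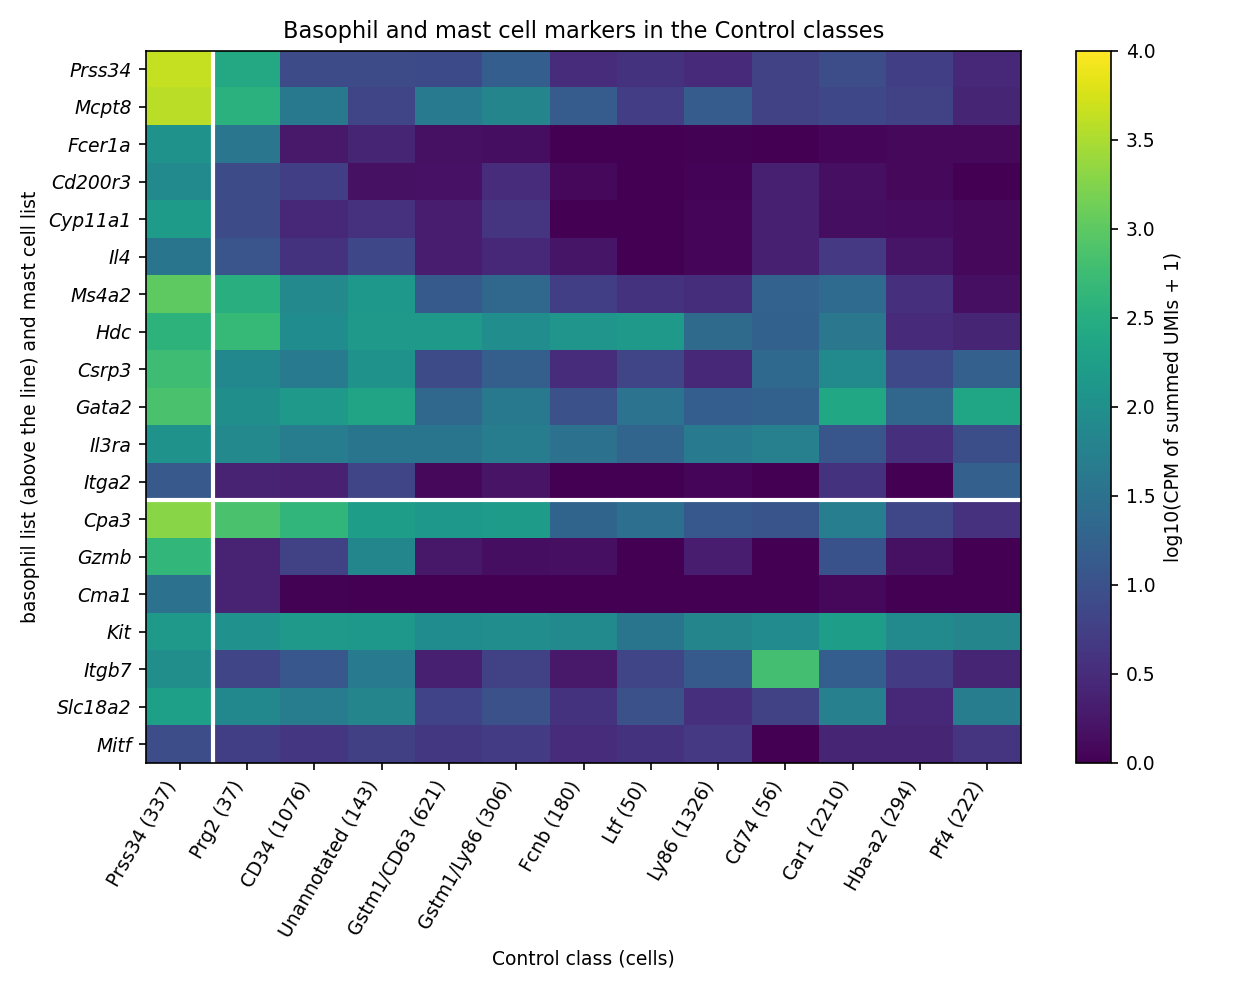
Levels of 12 basophil list genes (above the white line) and 7 mast cell list genes in the 13 Control classes of at least 30 cells; colour is log10 of CPM plus 1 from UMIs summed over the cells of a class, and the number of cells is in brackets. The Prss34 class, left of the white line, is the highest for Prss34 (4458 CPM), Mcpt8 (3818 CPM) and Gzmb (452 CPM), while Hdc is higher in the Prg2 class.

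The markers differed in how many class cells held them. To compare shares across depths, each cell was thinned to 5000 UMIs, which left 317 class cells (20 were shallower) and 2097 of 2210 cells of the class named after the erythroid gene Car1, set beside it. Median depths before thinning were 13639 and 15394 UMIs. The Car1 class held 91 cells that clustered with the Prss34 class, as described further on, so its shares are not background alone. Shares are therefore also given for 1235 thinned cells of the class named after the myeloid gene Ly86 (median 28550.5 UMIs), none of which did. Cpa3 was found in 310 of 317 class cells (97.8%, 95% interval 95.5 to 99.1), against 422 of 2097 Car1 class cells (20.1%) and 46 Ly86 class cells (3.72%). Ms4a2 was found in 303 of 317 class cells (95.6%, 95% interval 92.7 to 97.6), against 180 of 2097 Car1 class cells (8.58%) and 11 Ly86 class cells (0.891%). Mcpt8 was found in 214 of 317 class cells (67.5%, 95% interval 62.0 to 72.6), against 24 of 2097 Car1 class cells (1.14%) and 75 Ly86 class cells (6.07%). Prss34 was found in 151 of 317 class cells (47.6%, 95% interval 42.0 to 53.3), against 28 of 2097 Car1 class cells (1.34%) and 17 Ly86 class cells (1.38%). Gzmb was found in 71 of 317 class cells (22.4%, 95% interval 17.9 to 27.4), against 38 of 2097 Car1 class cells (1.81%) and 3 Ly86 class cells (0.243%). Unthinned, the class shares were 98.5% for Cpa3, 97.0% for Ms4a2, 71.8% for Mcpt8, 55.8% for Prss34 and 25.2% for Gzmb. Thus nearly every class cell held Cpa3 and Ms4a2, while Prss34 marked fewer than 1 cell in 2 at equal depth. Of 30 thinned Prg2 class cells, 93.3% held Cpa3, 70.0% Ms4a2, 43.3% Mcpt8, 36.7% Prss34 and 0% Gzmb. Of 1005 thinned CD34 class cells, the shares in that order were 58.8%, 15.5%, 11.9%, 1.49% and 1.19%. High shares of Cpa3 were thus not particular to the class. The high Prss34 level came from a part of the class: the cell with the most held 1218 of the 22865 UMIs.

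Across the whole transcriptome, 4841 genes were measured, meaning at least 30 CPM in the higher of class and rest and 100 UMIs in both together. Of these, 242 (5.0%) were at least 2-fold higher in the class and 120 (2.48%) at least 2-fold lower, and the median log2 ratio was -0.03. With 1 CPM added in place of 10, 189 genes were at least 2-fold lower. All log2 ratios here are class over rest after 10 CPM was added to both. A gene high in the class can be measured through the class alone, so counts of list members describe the lists and are no support for them. Of the granule proteases and proteoglycan, 9 of 17 members were measured, with 7 at least 2-fold higher and 0 at least 2-fold lower (median log2 ratio 2.00). Beside the class markers these were Srgn, Ndst2 and Cma1. Srgn, the serglycin core of the granule matrix, had 3095 against 983 CPM for class against rest. It was nearly as high in the class named after the neutrophil gene Fcnb (3056 CPM). Ndst2, an enzyme of heparin sulfation, had 60.6 against 13 CPM. Cma1, a mast cell chymase, had 30.2 against 0.07 CPM, in 22 of 337 class cells. Less the UMIs of the cell with most, Cma1 was at 21.8 CPM, under the 30 CPM needed to be measured. Its log2 ratio is also the list median. The proteases of mature mast cells Mcpt1, Mcpt2, Mcpt4, Mcpt9 and Tpsab1 had 0 UMIs in the class. With 5128652 UMIs in all, a count of 0 allows up to 0.585 CPM for each.

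By marker lists, the class stood out for basophil and mast cell genes. The lists share some genes with the 5 class markers. Of the 12 basophil markers 11 were measured, and 11 were at least 2-fold higher in the class (median log2 ratio 3.55). Fcer1a had 113 CPM in the class and 35.9 CPM in the Prg2 class, the next highest. Of the 13 mast cell markers 6 were measured, of which 5 were at least 2-fold higher (median log2 ratio 2.24), and Mcpt4, Mcpt1, Mcpt2, Tpsab1 and Mrgprb2 had 0 UMIs. Some markers were higher in another class. Itgb7 was higher in the class named after the antigen presentation gene Cd74 (640.0 CPM), and Kit had 141 CPM in the Prss34 class against 174 CPM in the Car1 class. Of the 10 eosinophil markers 2 were measured, 1 of them higher and 1 lower. Of the early progenitor markers 4 of 9 were measured, of the mature B and plasma cell markers 1 of 7, of the stromal and endothelial markers 1 of 8 and of the macrophage markers 0 of 6, and none of these passed 2-fold. Of the dendritic cell markers 3 of 9 were measured, with 1 lower, and of the lymphoid progenitor markers 1 of 7, which was lower.

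Genes of the IgE receptor were higher in the class, and those of the signalling chain behind it mostly were not. Of that list, 14 of 17 members were measured, with 5 at least 2-fold higher and 0 at least 2-fold lower (median log2 ratio 0.47). The members higher were the 3 receptor chains and 2 adaptors. Fcer1a, the chain that binds IgE, had 113 against 0.452 CPM, and Fcer1g, the gamma chain, 643 against 154 CPM. Fcer1g was higher in the class named after the neutrophil granule gene Ltf (1138 CPM). The adaptors Lat2 and Lat had 179 against 44.0 CPM and 53.2 against 18.3 CPM. Lat2 was at 149 CPM in the Cd74 class. Syk, the kinase that the receptor recruits, had 44.3 against 43.6 CPM, Lyn 47.2 against 37.3 CPM and Btk 45.0 against 48.1 CPM. Fcer1a was sparse, with UMIs in 109 of 337 cells, while Ms4a2 was in 327.

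Genes of histamine and leukotriene synthesis were higher in the class. Of the histamine and lipid mediator list, 5 of 12 members were measured, with 4 at least 2-fold higher and 0 at least 2-fold lower (median log2 ratio 2.35). Hdc, which makes histamine, had 379 against 58.2 CPM and was higher in the Prg2 class (475 CPM). Slc18a2, the transporter that loads histamine into granules, had 177 against 26.8 CPM. Alox5 and Alox5ap, which start leukotriene synthesis, had 125 against 2.67 CPM and 456 against 165 CPM, with a higher level for Alox5ap in the class named after the neutrophil granule gene Ltf (745 CPM). Alox5 was at 85.5 CPM in the Ltf class. Alox15 had too few UMIs to be measured, at 18.7 against 0.0955 CPM in 44 class cells.

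Receptors for IL-3, IL-33 and TSLP were higher in the class. Of the cytokine receptors, 10 of 25 members were measured, with 7 at least 2-fold higher and 0 at least 2-fold lower (median log2 ratio 1.40). Csf2rb and Csf2rb2, the beta chains through which IL-3 signals in mice, had 169.8 against 23.6 CPM and 42.7 against 2.01 CPM, and Il3ra, the IL-3 binding chain, 110.0 against 29.4 CPM. Il1rl1, the IL-33 receptor, had 92.8 against 18.3 CPM, Crlf2, the TSLP receptor, 147 against 58.6 CPM and Il2rg, the common gamma chain, 66.1 against 14.5 CPM. Crlf2 was at 123 CPM in the Cd74 class. Kit, the sort marker and mast cell growth factor receptor, had 141 against 113 CPM. Csf1r and Il5ra, the receptors of macrophage and eosinophil growth factors, had 0 UMIs in the class and 20.9 and 0.14 CPM in the rest. Of the basophil and mast cell surface receptors, 10 of 23 members were measured, with 6 at least 2-fold higher and 0 at least 2-fold lower (median log2 ratio 1.35). They included Cd200r3, an activating receptor of basophils and mast cells (81.3 against 1.04 CPM), Itgb7, the beta7 integrin chain used in homing to the gut (93.8 against 13.5 CPM), and Cd63, a granule membrane tetraspanin (1684 against 234 CPM, but 2438 CPM in Prg2). Of the cytokines and chemokines, 4 of 16 members were measured, with 3 at least 2-fold higher and 0 at least 2-fold lower (median log2 ratio 1.47). Csf1, the macrophage growth factor, had 97.9 against 2.89 CPM and Il4, the type 2 cytokine of basophils, 34.3 against 1.91 CPM. Il6 had 27.7 against 0.789 CPM and was under the level needed to be measured. Il3, Il5, Csf2 and Areg had 0 UMIs.

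Transcription factors differed from the rest in both directions. Of the list, 33 of 46 members were measured, with 10 at least 2-fold higher and 5 at least 2-fold lower (median log2 ratio 0.14). Gata2, required by both basophils and mast cells, had 713 CPM in the class (95% interval 689.9 to 736) and 109 CPM in the rest. Cebpa, which drives granulocyte fates, had 241 against 59.0 CPM, and Cebpb 200.4 against 74.5 CPM. Lmo4, a LIM-domain cofactor, had 2165 against 131 CPM, the highest log2 ratio of the list (3.95). Ikzf2 (Helios) had 390.2 against 64.1 CPM, Ets1 79.7 against 4.48 CPM and Id1 57.1 against 6.55 CPM. Ikzf2 was nearly as high in the Prg2 class (353 CPM), and Ets1 in the Ltf class (76.8 CPM). Hes1 and Id2 had 55.8 against 6.33 CPM and 104 against 12.3 CPM, and both came mostly from 1 group of class cells described further on. Runx1 had 454 CPM in the class (436 to 473) and 133 CPM in the rest, and the next highest Control class was the class named after the platelet gene Pf4 at 253 CPM. Cbfb, its binding partner, had 102 against 63.2 CPM and Runx3 89.3 against 84.3 CPM. The members lower were Irf8 of monocyte and dendritic fates (5.26 against 161 CPM), Cebpe of late granulocytes (19.5 against 74.6 CPM), and the erythroid and megakaryocyte factors Klf1 (29.8 against 82.8 CPM), Zfpm1 (32.0 against 118 CPM) and Lmo2 (88.5 against 323 CPM). Gata1 had 48.2 against 50.2 CPM.

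**Figure D2:**
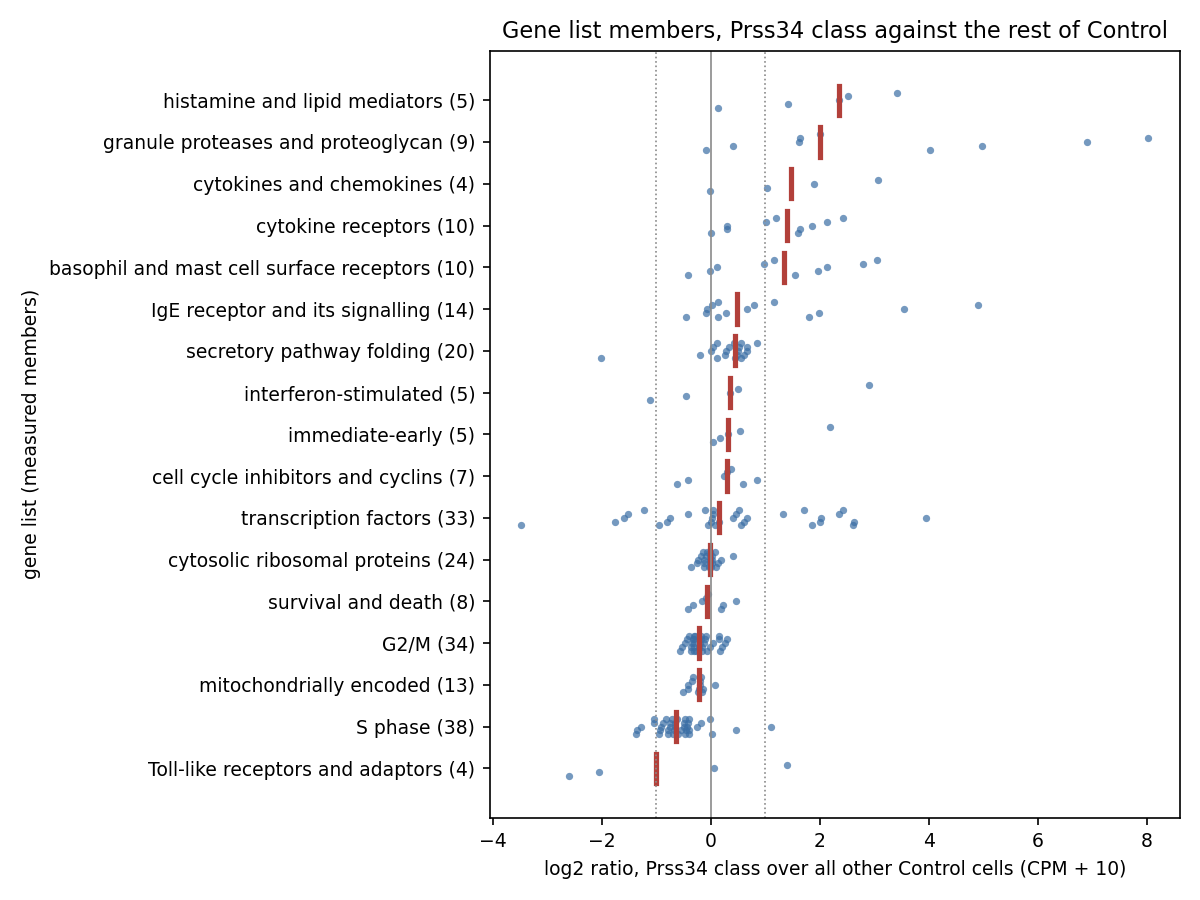
Log2 ratio of CPM, Prss34 class over all other Control cells with 10 CPM added to both, for the measured members of 17 gene lists; each point is a gene, red bars are list medians, and dotted lines mark 2-fold. The list medians run from 2.35 for histamine and lipid mediators to -1.0 for Toll-like receptors and adaptors, of which 4 members were measured.

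Beside the genes described so far, the highest log2 ratios were those of Cyp11a1, the enzyme that begins steroid synthesis from cholesterol (153 against 0.802 CPM), Rnase12, a ribonuclease A family gene (205 against 4.30 CPM, though 254 CPM in Prg2), Csrp3, a LIM protein best known from muscle (581 against 33.7 CPM), Fam129a (215 against 6.99 CPM), and Scin, an actin-severing protein (289 against 14.9 CPM). They were followed by Ccr1, a chemokine receptor (70.2 against 1.35 CPM, though 63.8 CPM in Ltf). Next were Gpr183, an oxysterol receptor (133 against 10.5 CPM), and Padi2, a peptidylarginine deiminase (121 against 8.79 CPM). Ifitm1, an interferon-inducible membrane protein, had 2028 against 261 CPM, whereas its neighbour Ifitm3 was lower, at 93.4 against 214 CPM. Among the 8 genes that exceeded every other class by the widest ratio, with 10 CPM added to each, were also Atp6v0a1, a subunit of the proton pump that acidifies vesicles (119.7 against 12.0 CPM), and Cma1. Csrp3 was in 318 of 337 cells, Cyp11a1 in 204 and Cma1 in 22.

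The lowest genes were mostly those of other lineages. They included the neutrophil granule genes Camp (3.70 against 211 CPM), Ngp (3.12 against 128 CPM) and Elane (116 against 1891 CPM), the erythroid carbonic anhydrases Car1 (60.8 against 891 CPM) and Car2 (72.7 against 646 CPM), the monocyte genes Ly6c2 (5.26 against 175 CPM) and F13a1 (3.90 against 124 CPM), the platelet chemokine Pf4 (11.9 against 201 CPM) and the metallothionein Mt1 (14.8 against 184 CPM). Of the erythroid markers 6 of 6 measured were at least 2-fold lower, of the monocyte markers 4 of 6 and of the neutrophil progenitor markers 6 of 10. Ctsg, for the primary granule protease cathepsin G, had 2182 against 1643 CPM, and Ms4a3, for a membrane protein of granulocyte and monocyte progenitors, 312 against 315 CPM. Of the megakaryocyte markers 3 of 10 were measured, with Itga2b higher in the class, at 137 against 51.3 CPM, and 2 lower. Defining markers of T and NK cells (Cd3e, Cd3g, Gzma, Ncr1, Klrd1, Trbc2), of B cells (Cd79a, Ms4a1) and of the late neutrophil genes Fcnb and Ltf had 0 UMIs in the class. The 1 measured marker of T, NK and innate lymphoid cells was Nkg7, a granule protein that myeloid cells share, at 603 against 289 CPM. Of the Toll-like receptor list, 4 of 23 members were measured, with 1 at least 2-fold higher and 2 at least 2-fold lower (median log2 ratio -1.0). The higher one was Irak3, a brake on Toll-like receptor signalling (50.1 against 12.9 CPM, though 59.8 CPM in Prg2). The lower ones were Ly86, a partner of a Toll-like receptor homologue on B and myeloid cells (2.14 against 63.8 CPM), and Unc93b1, the chaperone of endosomal receptors (6.82 against 60.2 CPM). Tlr1, Tlr3, Tlr5, Tlr7, Tlr8, Tlr9 and Cd14 had 0 UMIs.

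S phase transcripts took a smaller share of the UMIs in the class than in the rest. The S phase list summed to 2474 CPM in the class and 3749.9 in the rest, and 5 of its 38 measured members were at least 2-fold lower against 1 higher (median log2 ratio -0.64). The G2/M list summed to 5396 CPM in the class and 6134 in the rest, with 0 of 34 measured members past 2-fold. Among the classes the S phase sum was close to those of Cd74 (2469 CPM) and the Unannotated cells (2371 CPM), above that of Ltf (1887 CPM) and below that of the CD34 class (3640.1 CPM). Cdkn1b, the cell cycle inhibitor p27, had 57.1 against 27.3 CPM. In the remaining lists few members passed 2-fold. These were Ier3 of 5 measured immediate-early genes (118 against 17.9 CPM), Ifitm1 and Ifitm3 of 5 interferon-stimulated genes, and Prdx4 of 20 genes of protein folding in the secretory pathway (12.1 against 79.7 CPM). None of the 24 cytosolic ribosomal proteins, 13 mitochondrially encoded genes, 8 survival genes and 7 cyclins and cell cycle inhibitors measured did so. Over all 4841 measured genes 5.0% were at least 2-fold higher and 2.48% at least 2-fold lower. Counts of 0 in such short lists therefore do not set these lists apart.

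Over the 4841 measured genes the class profile was most like that of the Prg2 class (Pearson r = 0.93 of log2 CPM), then CD34 and the Unannotated cells (0.91 each) and Gstm1/Ly86 (0.87), and least like Hba-a2 (0.69). These are correlations across genes of 1 library, whose sums differ in depth, and genes are not replicates.

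Within the class the Control cells held 2 arms, one marked by Prss34 and Mcpt8, the other by Gzmb, beside cells with none of these. Clustering of the 337 cells gave 5 clusters. Cluster 2 held 74 cells (22.0%, 95% interval 17.7 to 26.8) and is called mast cell-like. Of the 6 measured mast cell markers, 5, with Gzmb among them, were at least 2-fold higher in it than in the other class cells. In all, 8 of 13 mast cell markers were detected in it, but detection did not set it apart. Cpa3, Gzmb, Kit, Cma1, Mitf, Itgb7 and Slc18a2 were also detected in clusters 0 and 3, and Tpsb2 came from 1 cell. The same 74 cells formed 1 cluster at a coarser resolution and exactly 2 clusters at a finer one. Median depth was 10558 UMIs in cluster 2 and between 12476 and 23916 in the others. Gzmb had 2709.9 CPM in the mast cell-like cells and 27.1 CPM in the other 263 class cells, with UMIs in 90.5% and 6.84% of them. Prss34 had 8.62 CPM (7 UMIs) in the mast cell-like cells and 5296 CPM in the others. Mcpt8 had 783 against 4389 CPM in the same order. Cpa3 had 2425 against 1827 CPM and Ms4a2 599.6 against 1091 CPM. Both arms carried these genes. Since the clusters were made from these genes, the differences describe the clusters and were not tested.

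Single cells rarely held both Prss34 and Gzmb. Of the 317 thinned class cells, 151 held Prss34, 71 held Gzmb and 3 held both, while 54 held no UMI of Prss34, Mcpt8 or Gzmb. Prss34 and Mcpt8 went together, with 146 of the 151 Prss34 cells also holding Mcpt8. Mcpt8 overlapped more with Gzmb, in 26 of the 71 Gzmb cells (36.6%). Of the 71 Gzmb cells, 54 held Kit (76.1%), against 36.2% of cells without Gzmb. Cebpa ran the other way, in 21.1% of Gzmb cells and 70.7% of the others.

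**Figure D3:**
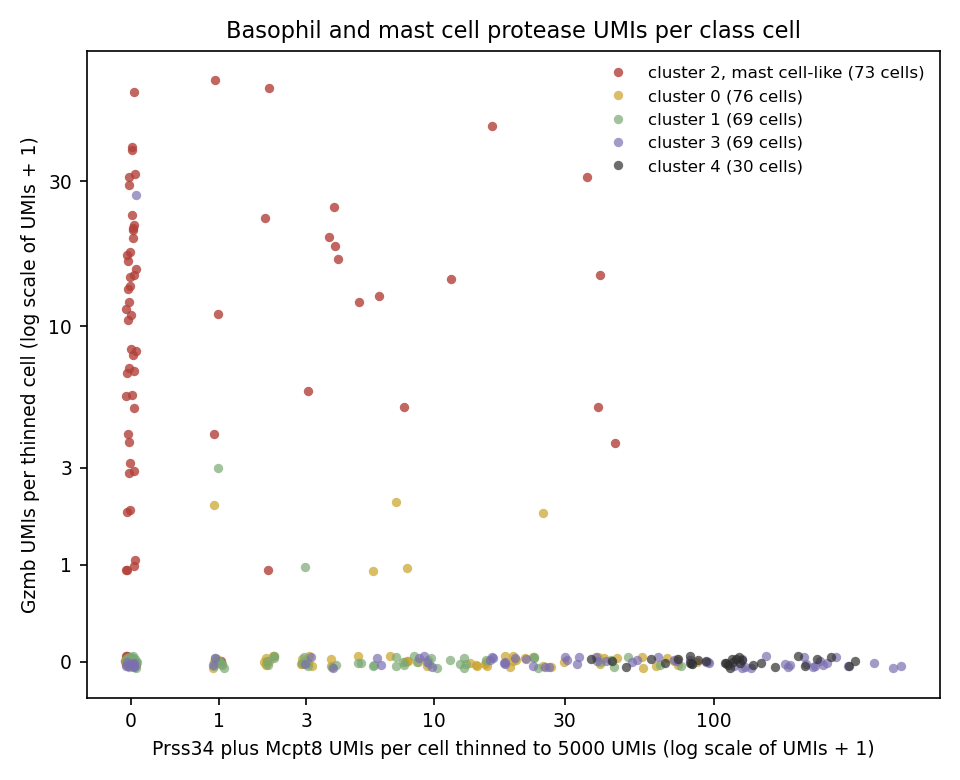
UMIs of Prss34 plus Mcpt8 (horizontal) and of Gzmb (vertical) in each of 317 Control class cells thinned to 5000 UMIs, on log scales of UMIs plus 1 with a small spread added to separate points; colours are clusters within the class. Of the 73 mast cell-like cells, 52 have 0 UMIs of Prss34 and Mcpt8 and 10 have 0 UMIs of Gzmb, and of the 244 other cells 236 have 0 UMIs of Gzmb.

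The arms also differed in receptors, regulators and the secretory machinery. Over 4978 genes measured between them, 230 (4.62%) were at least 2-fold higher in the mast cell-like cells and 166 (3.33%) at least 2-fold lower. The genes named here by rank were chosen after their values were seen. Highest after Gzmb were Hes1, a Notch target (318 against 6.49 CPM for mast cell-like against other class cells), Id2, an inhibitor of helix-loop-helix factors (553 against 19.2 CPM), Cma1 (183 against 1.39 CPM), Scin (1261 against 106 CPM), Basp1 (171 against 7.18 CPM) and Trbc1, a T cell receptor constant segment (127 against 3.01 CPM). The T and NK cell markers Cd3e, Cd3g, Gzma, Ncr1, Klrd1 and Trbc2, as stated above, had 0 UMIs in the class. Kit had 394 against 93.1 CPM, Itgb7 311 against 52.8 CPM and its partner Itga4 619 against 145 CPM. Mitf, a mast cell transcription factor, had 39.4 CPM in cluster 2 and at most 2.93 in any other. Il2rg had 243 against 32.9 CPM, Il1rl1 195 against 73.7 CPM and Csf2rb2 101 against 31.7 CPM, while Il3ra was lower, at 57.9 against 119.8 CPM. Of the 10 measured cytokine receptors 5 were at least 2-fold higher and 0 lower. Slc18a2 had 339 against 147 CPM. The early progenitor markers Meis1 and Sox4 had 166 against 37.1 CPM and 803 against 301 CPM, Cx3cr1, a chemokine receptor of monocytes, 150.2 against 20.6 CPM and Pdgfrb, a growth factor receptor, 135 against 18.8 CPM.

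Lower in the mast cell-like cells than in the other class cells were the primary granule genes Mpo (60.3 against 1737 CPM), Ctsg (107 against 2572 CPM), Prtn3 (60.3 against 408 CPM) and Elane (24.6 against 134 CPM), with 5 of 6 measured neutrophil progenitor markers at least 2-fold lower. Cebpa had 48.0 against 277 CPM and Cebpb 33.2 against 232 CPM. Rnase12 had 8.62 against 242 CPM, Ms4a3 12.3 against 368 CPM and Cd200r3 20.9 against 92.7 CPM. Of the secretory folding genes 10 of 19 measured were at least 2-fold lower, such as Calr, a calcium-binding chaperone (472 against 2096 CPM), and Sdf2l1 (55.4 against 266 CPM). Of the G2/M genes 21 of 35 were lower, Mki67 among them (1.23 against 163 CPM). The other class cells include a cycling cluster, cluster 3, whose G2/M sum was 11189 CPM, against 2152 in cluster 2 and 1979.7 to 3322 in clusters 0, 1 and 4. Gata2 had 875 against 682 CPM, and Runx1 had 569 CPM in cluster 2 and 370.3 to 591 in the others. The tryptases of mature mast cells were nearly absent. Tpsab1 had 0 UMIs, and all 22 UMIs of Tpsb2 in the class came from 1 cell of 4071 UMIs, which also held 43 of the 149 Cma1 UMIs of the cluster.

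**Figure D4:**
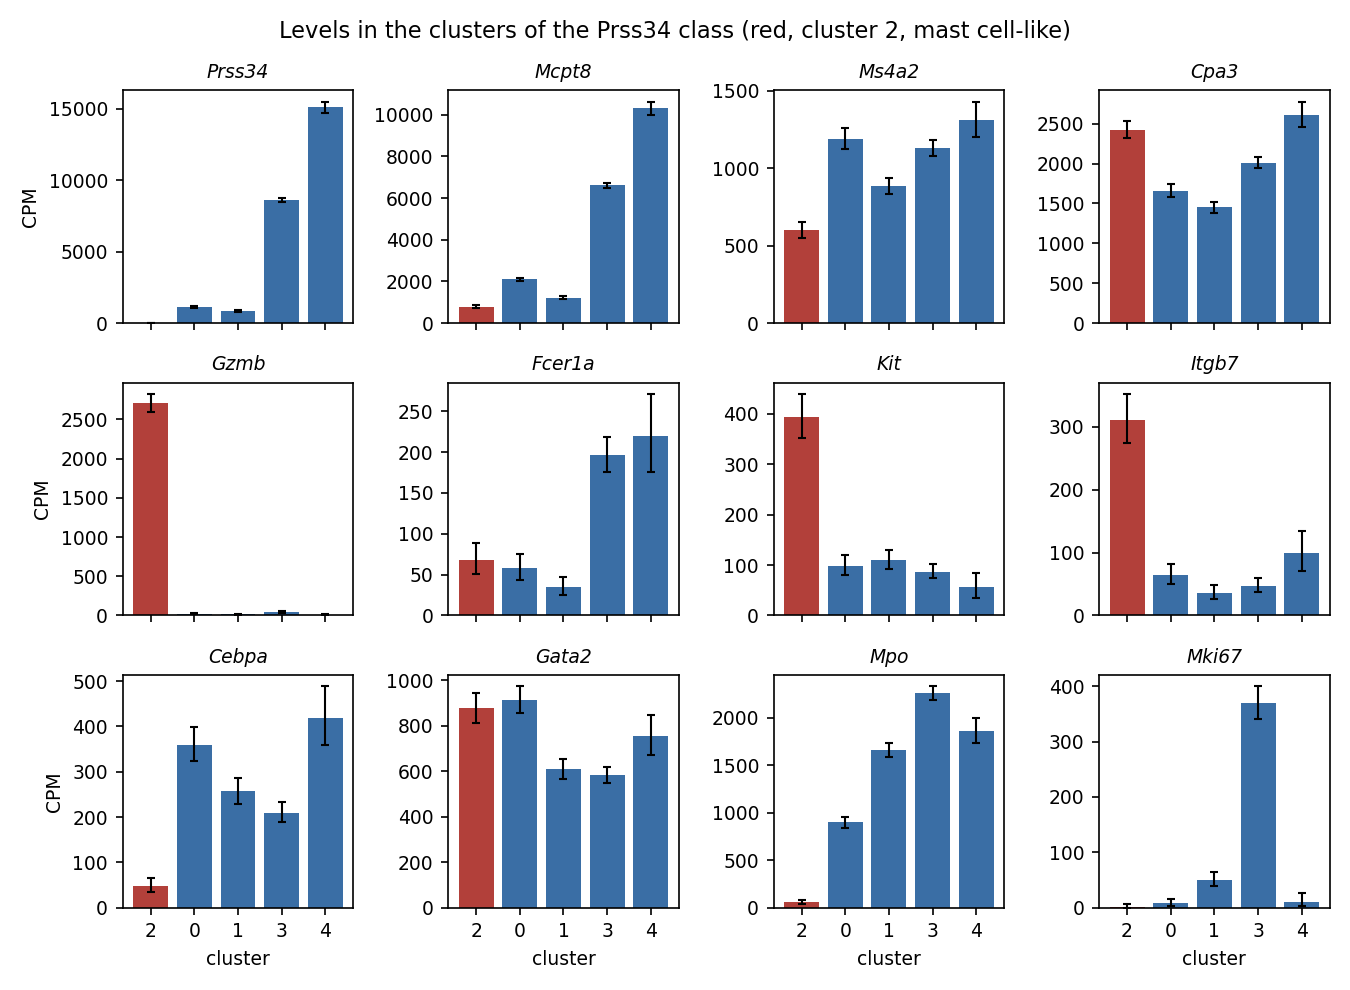
Level of 12 genes in the 5 clusters within the Control class, in CPM of summed UMIs; bars are levels, error bars are exact Poisson 95% intervals (counting error only), and the mast cell-like cluster 2 is in red at the left. Gzmb is at 2710 CPM in cluster 2 and at most 44.0 elsewhere, and Prss34 is at 8.62 CPM there and 15127 in cluster 4.

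The mast cell-like and the other class cells differed in their levels of genes of a protease locus on chromosome 14. From Cma1 to Gzmb (55941451 to 56262260, GENCODE M21 on GRCm38) the locus spans 321 kb and holds 16 genes of the matrix, 6 of which had a class UMI. At its ends lie Cma1 and Gzmb. Cma1 had 149 UMIs in the mast cell-like cells against 6 in the other class cells (183 against 1.39 CPM). Gzmb had 2201 against 117 UMIs in the same order (2709.9 against 27.1 CPM). Between them lie Mcpt8 and Ctsg. Mcpt8 had 636 UMIs in the mast cell-like cells against 18946 in the other class cells (783 against 4389 CPM). Ctsg had 87 against 11103 UMIs in the same order (107 against 2572 CPM). It was higher in the class named after the neutrophil gene Fcnb, at 6322 CPM. Cma2 and Gzmc had 3 UMIs and 1 UMI, all in the mast cell-like cells. Mcpt1, Mcpt2, Mcpt4, Mcpt9 and the granzymes Gzmd, Gzme, Gzmf, Gzmg and Gzmn had 0. The proteases are close relatives, and the sources used here do not state how reads that match several of them were counted.

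Across the class, several genes followed the order of Prss34 and Mcpt8. The thinned class cells were ordered by Prss34 plus Mcpt8 UMIs and cut into a low, a middle and a high group of nearly equal size, of 0 to 1, 1 to 20 and 20 to 443 UMIs, with cells tied at a boundary falling on both sides. Values below are for the low, the middle and the high group in that order. The groups held 55, 14 and 4 mast cell-like cells, so the cells were also divided without cluster 2, an alternative added after the data were seen. Fcer1a had 41.9, 65.3 and 209.5 CPM, and 51.5, 55.5 and 258 CPM without cluster 2. Cd200r3 had 9.95, 27.9 and 176 CPM, and 15.9, 38.6 and 211 CPM without cluster 2. Both were highest where the proteases were highest. Cyp11a1 had 62.5, 124 and 243 CPM, and 44.7, 128 and 249 CPM without cluster 2. Alox5 had 78.2, 99.3 and 186 CPM, and 70.4, 113 and 182 CPM without it, and Cpa3 1162, 1826 and 2578 CPM, and 1078, 1714 and 2687 CPM without it. The neutrophil progenitor list summed to 1274, 4685 and 6914 CPM, with Mpo at 468, 1592 and 2123 CPM. Without cluster 2 the steps were smaller, at 3078, 5357 and 7486 CPM for the list and 1161, 1801 and 2228 CPM for Mpo. The opposite order was seen for Lmo4, at 3076, 2249.9 and 1442 CPM and, without cluster 2, 2457, 2013 and 1284 CPM. Ifitm1 had 3472, 1716 and 1213 CPM, and 2148, 1387 and 1229.6 CPM without cluster 2. Ikzf2 had 475, 427 and 289 CPM, and 443, 371 and 276 CPM without it. The early progenitor list had 918, 614 and 341 CPM, and 659, 532 and 278 CPM without it. Gzmb had 1097, 321 and 101 CPM, and 59.1, 16.3 and 3.55 CPM without cluster 2, which held most of its UMIs. In cluster 3, 1 cell held 68 of the 75 Gzmb UMIs. Thinned, that cell held 0 UMIs of Prss34 and Mcpt8, so it lay in the low group. The Gzmb level of the low group without cluster 2 rests largely on that cell. Gzmb depended on the order used: its log2 ratio of the high over the low group was -3.32, but -6.44 with cells ordered by Prss34 alone and -2.35 without cluster 2. Over all thinned class cells Gata2 had 749, 669.9 and 731 CPM and Runx1 488, 471 and 417 CPM. Median depth in these groups was 11686, 14987 and 16396 UMIs. The G2/M list summed to 3939, 5030 and 6903 CPM, and to 4702, 6214 and 7096 CPM without cluster 2. The part of depth and of cycling in the differences between the groups was not tested.

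The clusters outside the mast cell-like one ranged from weak to strong basophil expression. Cluster 4 (32 cells) had the highest Prss34, at 15127 CPM, Mcpt8, at 10309.6, Cd200r3, at 268, and Cebpa, at 419.6 CPM. Alox15 was at 116 CPM there, in 19 of 32 cells. Prg2 was also highest in cluster 4, but 87.7% of its UMIs came from 1 cell. Cluster 3 (72 cells), the cycling one, had Prss34 at 8627 CPM and Mki67 at 369.7 CPM, against 10.1 in cluster 4. Its S100a8 and S100a9 came from 1 cell, which held 437 of the 507 S100a8 UMIs of the class together with 81 of Prss34 and was not marked as a doublet. Clusters 0 (80 cells) and 1 (79 cells) had Prss34 at 1133 and 852 CPM. Cluster 0 had the most Hdc (568 CPM) and Csrp3 (862 CPM), and cluster 1 the most Mcm2, a replication gene (115 CPM).

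Clustering both libraries together, without use of the class names, placed 326 of the 337 Control class cells in 1 cluster. That cluster held 10 Runx1 KO cells (0.127%, 95% interval 0.0608 to 0.233) and 581 Control cells (8.41%, 7.77 to 9.09). The Control cells beyond the class were 122 of the CD34 class, 91 of Car1, 33 Unannotated and 9 of the Gstm1 classes. Those of Car1 and the Unannotated cells held Gzmb and little Prss34, with Gzmb at 275 and 327 CPM, below the 2709.9 CPM of the mast cell-like cluster, and Prss34 at 6.65 and 16.1 CPM. Their Cpa3 was at 467 and 756 CPM and their Mcpt8 at 22.2 and 5.36 CPM. Those of CD34 had Ms4a2 at 593 and Cpa3 at 964 CPM with Prss34 at 53.9 CPM. The 10 Runx1 KO cells had Ms4a2 at 822 CPM, Cpa3 at 916 and Hdc at 476, against 790.0, 1411 and 364 CPM in the Control cells of the cluster. They held 7 UMIs of Prss34 and 0 of Mcpt8, Gzmb, Fcer1a, Cyp11a1 and Itgb7. In 10 cells a level of 0 rests on few UMIs.

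Transcripts of the class were found outside it at ratios of Runx1 KO to Control from near 0 to above 1. Outside the class Prss34 had 16 UMIs in Runx1 KO cells and 1107 in Control cells, Gzmb 1 UMI in Runx1 KO cells and 724 in Control cells, Fcer1a 2 UMIs in Runx1 KO cells and 71 in Control cells and Cyp11a1 4 UMIs in Runx1 KO cells and 126 in Control cells. Mcpt8 had 5.95 CPM in Runx1 KO and 21.8 CPM in Control outside the class, and Csrp3 4.51 CPM in Runx1 KO and 33.7 CPM in Control. Ratios of Runx1 KO to Control outside the class were 0.261 for Ifitm1, 0.315 for Rnase12, 0.468 for Lmo4, 0.5 for Cebpa, 0.608 for Ms4a2, 0.654 for Itgb7 and 0.7 for Slc18a2. They were 0.932 for Hdc, 1.00 for Gata2, 1.24 for Cpa3, 1.54 for Alox5, 2.80 for Il4, 4.10 for Cd200r3 and 5.99 for Itga2. The pooled cells differed in make-up, as the Pf4 class was 22.6% of Runx1 KO and 3.21% of Control. Within the CD34 and the Car1 class the ratios were 1.53 and 0.195 for Hdc and 0.335 and 0.897 for Alox5. In the same order they were 2.11 and 1.39 for Cpa3 and 2.10 and 1.78 for Itga2. The part of make-up in the pooled ratios was not tested. In Control nearly every class held a little Prss34 (from 1.83 CPM in Pf4 to 14.8 in Gstm1/Ly86, Prg2 aside). The part of free RNA from class cells in these differences was not tested. The Prg2 class stands above that range, with Prss34 at 5.60 CPM in Runx1 KO and 263 CPM in Control (2 and 176 UMIs from 25 and 37 cells) and Mcpt8 at 11.2 CPM in Runx1 KO and 356 CPM in Control.

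In the CD34 class, named after a surface marker of early progenitors, genes of the Prss34 class differed between Runx1 KO and Control in both directions. Higher was Cpa3, which had 899.7 CPM in Runx1 KO and 427 CPM in Control, a ratio of 2.11 (95% interval 2.05 to 2.16). Cd200r3 had 38.1 CPM in Runx1 KO and 4.45 CPM in Control, a ratio of 8.57 (6.88 to 10.8), with UMIs in 240 of 679 Runx1 KO cells and 64 of 1076 Control cells. Il4 had 8.13 CPM in Runx1 KO and 2.85 CPM in Control and Hdc 134 CPM in Runx1 KO and 87.6 CPM in Control. Ms4a2 had 74.0 CPM in Runx1 KO and 74.9 CPM in Control, a ratio of 0.988 (0.908 to 1.07). Gata2 had 116 CPM in Runx1 KO and 139.7 CPM in Control, a ratio of 0.833 (0.78 to 0.888). Lower in Runx1 KO was Csrp3, at 6.73 CPM in Runx1 KO and 42.5 CPM in Control. Lower too were Scin (ratio 0.0468), Mcpt8 (0.144), Rnase12 (0.179), Alox5 (0.335), Itgb7 (0.46), Ifitm1 (0.551), Lmo4 (0.561), Cebpa (0.575), Fam129a (0.635) and Slc18a2 (0.642). Over the whole libraries Cd200r3 had 619 UMIs in Runx1 KO and 580 in Control, although 1 Runx1 KO cell and 337 Control cells were of the class. The CD34 class held 679 Runx1 KO cells and 1076 Control cells, and the spread between mice of these differences is not known. Of these cells, 6 in Runx1 KO and 122 in Control lay in the cluster shared with the Prss34 class. The 122 Control cells held 1385 of 1685 Ms4a2, 797 of 957 Csrp3, 3297 of 6227 Lmo4 and 2254 of 9612 Cpa3 UMIs. The 6 Runx1 KO cells held 108 of 847, 15 of 77, 117 of 1779 and 124 of 10298 in that order. The part of these cells in the differences was not tested.

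Few Runx1 KO cells carried the markers together. Thinned to 5000 UMIs, 2 of 7542 Runx1 KO cells and 28 of 6124 Control cells outside the class held at least 6 of the 12 basophil markers, against 196 of 317 Control class cells. Outside the class at least 4 were held by 74 Runx1 KO cells (0.981%) and 247 Control cells (4.03%). In the Car1 class the shares were 0.514% in Runx1 KO and 4.24% in Control. In the CD34 class they were held by 40 of 658 Runx1 KO cells (6.08%) and 88 of 1005 Control cells (8.76%). At least 5 thinned UMIs of Prss34 and Mcpt8 together were found in 8 of 7543 Runx1 KO cells and 185 of 6441 Control cells, 163 of which were in the class.

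**Figure D5:**
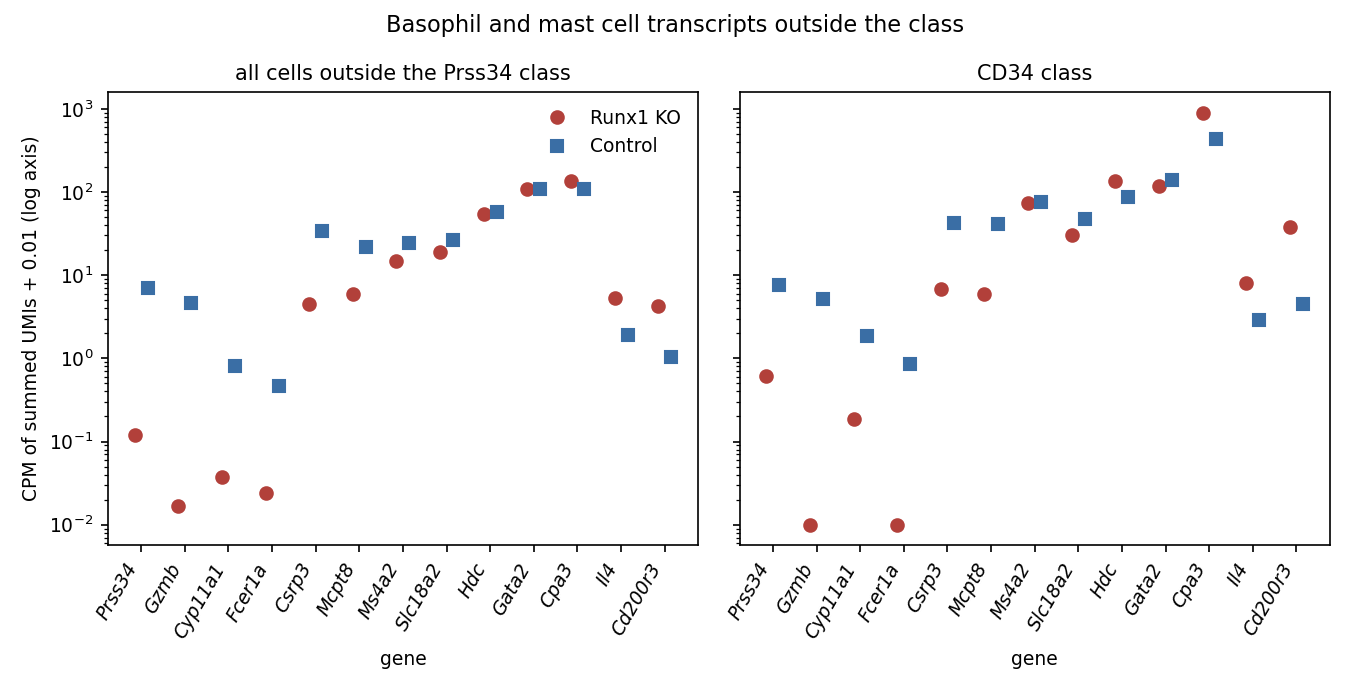
CPM of summed UMIs plus 0.01, on a log axis, for 13 class genes in Runx1 KO (red circles) and Control (blue squares), over all cells outside the Prss34 class (left) and in the CD34 class (right); each point is 1 library. Prss34, Gzmb, Cyp11a1 and Fcer1a lie lower in Runx1 KO in both panels, and Il4 and Cd200r3 lie higher.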

How the data were processed

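Droplet 3′ single-cell RNA libraries of sorted marrow progenitors, 1 per genotype, were analysed from the authors' deposited matrix of UMI counts (Cell Ranger on mm10, per the submitters' processing notes) and their deposited cell annotation, whose class names, mitochondrial fraction and other per-cell ratio columns are the authors' own. The sources used here do not state other upstream steps. The cells named WT were taken as the Control library. The members and gene lists were chosen with earlier results of these data known.

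For each class the UMIs of its cells were added up and scaled to counts per 1000000 (CPM). A gene was measured at 30 CPM or more in the class or its comparison and 100 UMIs in both together, and log2 ratios used 10 CPM as pseudocount. With 1 library per group no test was run; intervals are exact Poisson or binomial 95% intervals, a count of 0 was read as up to 3 counts, and both cover counting error only. Shares of cells used cells thinned to 5000 UMIs. No cell was removed; doublets were scored with scrublet in scanpy 1.11.5 at an expected rate of 6% and kept. Clusters were made with leidenalg 0.10.2 on 2000 variable genes, 15 neighbours and resolution 0.5, with 30 principal components over both libraries and 20 within the class. A cluster was called mast cell-like from a marker list. Gene positions are from GENCODE M21 and promoters from RefSeq on GRCm38.p6. The procedure was checked on simulated counts. Named genes were the 20 highest and 10 lowest log2 ratios, the 8 highest over every other class, the 5 class markers, Runx1, and of each of 17 gene lists up to 6 members by level and 3 by ratio. Other list members, genes of clusters within the class, of the chromosome 14 locus and of the CD34 class were named after their values were seen.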

Additional observations from a re-analysis of the deposited data

How the results depend on the processing

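No paired analysis was possible because each genotype had 1 library. With the cluster made over both libraries in place of the class name, the share was 0.127% in Runx1 KO and 8.41% in Control, and with at least 5 thinned UMIs of Prss34 and Mcpt8 it was 0.106% in Runx1 KO and 2.87% in Control. With a pseudocount of 1 CPM, 189 genes were at least 2-fold lower in the class. As a mean of CPM per cell, the class had 2175 CPM of the S phase list and 4265 CPM of the G2/M list, and outside the class Runx1 KO had 4.09 CPM of Mcpt8, 16.9 CPM of Ms4a2 and 155 CPM of Cpa3. Without doublet calls Mcpt8 there was 5.19 CPM. Without thinning 55.8% of class cells held Prss34, and at 3000 UMIs 89.6% held Ms4a2 and 93.9% Cpa3. At resolution 0.8 the cluster with most Gzmb had 35 cells. Ordered by Prss34 alone, the log2 ratio of the high over the low group of class cells was 1.5 for Fcer1a, 2.45 for Cd200r3 and -6.44 for Gzmb. For Gzmb it was -2.40 ordered by Mcpt8 alone and -2.35 without the mast cell-like cluster, an alternative added after the data were seen. The value of -2.35 rests largely on 1 cell of the low group with 68 Gzmb UMIs. Among log2 ratios of named genes, 1273 values stayed within the counting interval, 310 moved beyond it, and 1 gene past 2-fold changed sign. This was Ccl6, a chemokine, with 1.17 with all other cells summed and -0.15 with the other classes weighted equally. At 21.8 CPM in the class it was under the level needed to be measured, and 20.5% of its class UMIs came from 1 cell. It was at 200 CPM in the Ltf class of 50 cells. The cause of the change was not tested. Of list medians, 155 stayed within 0.1 and 32 moved further. Leaving out a library was not possible. Depth limits the rarest transcripts and every value from the 10 Runx1 KO cells of the shared cluster.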
